A study of Mus musculus with 79 samples.

Results

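The replication-dependent histone genes lie in clusters and encode the linker histone H1 and the core histones H2A, H2B, H3 and H4. They were taken as the genes of the deposited table whose symbol starts with Hist1h, Hist2h, Hist3h or Hist4h, which gave 67 of 35230 genes: 6 for H1, 18 for H2A, 18 for H2B, 12 for H3 and 13 for H4. Of these, 54 lie on chromosome 13, 10 on chromosome 3, 2 on chromosome 11 and 1 on chromosome 6. A mean of 1 RPKM (reads scaled to gene length and library depth) or more in at least 1 group of libraries was reached by 43 of the 67, which are the genes described. The gene just inside that limit, Hist2h2ac, had a highest group mean of 1.10 RPKM, and the gene just outside it, Hist1h2bf, one of 0.972 RPKM.

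RNA was measured in 79 libraries of mouse embryonic stem cells (ESC) and of cells derived from them. In TET KO cells Tet1, Tet2 and Tet3, whose products oxidise methylated cytosine, were all knocked out, and TET WT was the wild-type line they came from. In DNMT KO cells the DNA methyltransferase genes Dnmt1, Dnmt3a and Dnmt3b were all knocked out, and DNMT WT was the wild-type line of that knockout. Each line was sampled as ESC in 2i/LIF at day 0 (ESC D0), as epiblast-like cells at days 1 and 2 (EpiLC D1, EpiLC D2) and as embryoid bodies at days 2, 4, 6 and 8 (EB D2 to EB D8), which gave 28 groups, 23 of 3 libraries and 5 of 2. Nothing in the labels says whether replicates came from separate cultures, and the spread that the p-values measure may therefore be technical. Each genotype is 1 line, so an effect of the knockout and a difference between lines cannot be told apart.

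Most replication-dependent histone mRNAs end in a short stem-loop and carry no poly(A) tail. The stem-loop is bound by the protein that Slbp encodes, and these mRNAs are made mainly in S phase, when new DNA has to be packed into nucleosomes. Some of the genes can also give polyadenylated transcripts that run past the stem-loop. The libraries were made by oligo-dT capture, which selects RNA with a poly(A) stretch, so the levels below are those of captured histone RNA. How much uncaptured histone RNA the cells held was not measured.

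The genes were read at low depth. Depths and reads were worked back from the deposited RPKM. The libraries so had depths of 7.76 to 13.9 M reads, and 51 of the 67 genes had fewer than 5 reads in the median library. Only Hist1h2ba had no read in any library. Dnmt1 lay at 3.63 to 6.49 RPKM in DNMT KO and at 39.4 to 63.2 RPKM in DNMT WT. The ranges of Dnmt3a (0.339 to 4.94 against 1.63 to 60.3 RPKM) and Dnmt3b (3.03 to 58.6 against 24 to 382 RPKM) overlapped between those lines. The ranges of Tet1, Tet2 and Tet3 overlapped between TET KO and TET WT too, so their RNA level does not check the TET KO label. At EB D8, markers of erythroid cells summed to 8041 to 8656 RPKM in TET WT, 25.5 to 37.2 in TET KO, 4437 to 4463 in DNMT WT and 125 to 151 in DNMT KO. In bulk samples fewer cells of a type and less RNA per cell cannot be told apart.

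A single library, TET WT EB D4 replicate 2, stood apart. It was the shallowest, and its level of Rmrp, a short RNA made without a poly(A) tail, was 544 RPKM against at most 34.7 in the 78 others. Rpph1, another such RNA, was at 251 RPKM against at most 31.0. Of the 43 genes described, 28 had their highest group mean at TET WT EB D4, and 15 reached the limit of 1 RPKM only through this library. Among the most abundant genes of their type the latter held for Hist1h3e, at 14.5 RPKM in this library and at most 1.25 in the others. Hist2h2bb, at 50.7 RPKM against at most 6.97, and Hist1h4k, at 15.7 against at most 3.39, were also highest in it but reached the limit without it. A second library, DNMT KO EB D2 replicate 2, had high H2A genes, with Hist1h2ap at 37.1 RPKM, Hist1h2ak at 26.4 and Hist1h2ah at 22.6, where the other library of that group had 2.70, 1.10 and 1.71.

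The annotated transcripts show which genes carry the stem-loop. Whole transcripts were searched for an arm GGNNNT, a loop TNTN and a second arm ANNNCC pairing with the first. It was found in 46 of the 67 genes (68.7%) and in 24 of 21884 other protein-coding genes (0.11%). In the 46 it lay after the stop codon, and its place in the other genes was not read. In 13 of the 67 the annotated transcript stops at the stop codon, so no stem-loop could be read. The windows below are of the genes on which the results turn, each with the stem-loop in capitals, from GENCODE M21 on GRCm38:
Hist1h2ap: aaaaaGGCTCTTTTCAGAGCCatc
Hist1h1c: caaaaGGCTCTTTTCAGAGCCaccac
Hist3h2a: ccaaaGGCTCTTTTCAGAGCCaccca
Hist3h2ba: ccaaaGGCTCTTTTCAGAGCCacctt
Hist1h3c: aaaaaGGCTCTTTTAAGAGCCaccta
Hist1h4i: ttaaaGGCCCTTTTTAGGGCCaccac

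The first 4 share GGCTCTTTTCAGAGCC, the form of 26 genes. The transcripts differ in what follows. That of Hist1h2ap ends 3 bases after its stem-loop. Those of Hist1h1c, Hist3h2a, Hist3h2ba and Hist1h4i go on for 840, 1643, 169 and 330 bases and hold a poly(A) signal there, as do 17 of the 67 genes. Hist1h2ak has a model of 393 bases that stops at the stop codon, and Hist1h2bc has a model of 1156 bases that spans an intron and holds no stem-loop.

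Promoters were matched for 62 of the 67 genes in RefSeq on GRCm38.p6, in windows from 250 bases before the start to 50 after it. The letters CCAAT, searched on both strands, were in 85.7% of the 63 windows against 37.4% of all 32851 promoters: in every H1, H2A, H2B and H3 window and in 3 of 12 H4 windows. TATAAA was in 55.6% against 13.6%. ATTTGCAT, the octamer known from H2B promoters, was in 22.2% against 1.74%: in 7 of 18 H2A windows, 7 of 17 H2B windows and none of the others. The 150 bases before the start are shown for 2 H2A genes that were high in TET WT and for 1 that rose with differentiation, with matches to these motifs in capitals:
Hist1h2ak (chr13:21753913-21754062, minus strand): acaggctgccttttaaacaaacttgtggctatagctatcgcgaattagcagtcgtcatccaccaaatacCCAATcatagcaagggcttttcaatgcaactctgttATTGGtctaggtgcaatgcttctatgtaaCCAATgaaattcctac
Hist1h2ap (chr13:21833476-21833625, minus strand): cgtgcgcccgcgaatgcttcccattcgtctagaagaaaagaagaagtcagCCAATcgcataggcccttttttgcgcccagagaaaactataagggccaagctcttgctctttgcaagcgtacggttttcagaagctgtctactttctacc
Hist3h2a (chr11:58954535-58954684, plus strand): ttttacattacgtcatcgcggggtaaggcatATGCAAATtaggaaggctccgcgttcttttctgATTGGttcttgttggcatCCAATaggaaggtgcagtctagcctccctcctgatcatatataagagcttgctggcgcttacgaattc

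A match is a description of letters and not a site of binding. All 3 stretches hold CCAAT on at least 1 strand. That of Hist3h2a also holds the octamer, on the other strand.

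Because copies share sequence, levels were first summed over all genes of a histone type, as a description. The H2A sum set TET WT apart from the other lines. Over the 21 TET WT libraries it ran from 42.2 to 145 RPKM with a median of 94.6, and over the 58 libraries of the other lines from 3.03 to 119 with a median of 12.4. Without DNMT KO EB D2 replicate 2, the highest of the others was 36.7 RPKM, so that no library overlapped. In TET WT the H2A sum was 58.0, 49.2 and 61.2 RPKM at ESC D0, 145, 110 and 130 at EpiLC D2, and 42.2, 53.2 and 49.6 at EB D8. The EpiLC D2 libraries lay above those of ESC D0 and EB D8 with no overlap, while ESC D0 and EB D8 overlapped.

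The other types were low in every line once the odd EB D4 library was set aside. Over the remaining 78 libraries the H1 sum ran from 1.61 to 19.3 RPKM (median 3.93), the H2B sum from 1.20 to 23.1 (median 5.95), the H3 sum from 0.0446 to 14.4 (median 3.16) and the H4 sum from 0.412 to 12.3 (median 3.84). In the odd library itself the H1 sum was 60.1, the H2B sum 112, the H3 sum 57.2 and the H4 sum 101 RPKM, where the other libraries of TET WT EB D4 had 3.51 and 3.22, 10.2 and 8.79, 4.95 and 6.31, and 6.60 and 6.30. Its H2A sum of 108 RPKM lay beside 104 and 87.2.

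The H1 sum was higher at EB D8 than at ESC D0 in all 4 lines with no overlap, and the H3 sum was lower with no overlap in the TET lines. At EB D8 most of the H1 sum in every line was Hist1h1c alone, whose levels are given below. Without Hist1h1c, the H1 sum in TET WT was lower at EB D8 than at ESC D0. The H1 sum in TET WT was 2.49, 3.36 and 1.83 RPKM at ESC D0 and 10.8, 10.2 and 7.89 at EB D8, and in TET KO 2.55, 3.35 and 3.73 against 19.3, 15.8 and 15.2. The H3 sum in TET WT was 2.45, 5.04 and 3.82 RPKM at ESC D0 and 0.0446, 0.426 and 1.47 at EB D8, and in TET KO 5.58, 3.25 and 5.12 against 1.41, 2.53 and 1.66. The H1 sum was 2.55 and 2.64 RPKM at ESC D0 and 9.04, 9.18 and 11.4 at EB D8 in DNMT WT, and 1.61, 2.14 and 2.26 against 4.47, 6.46 and 7.59 in DNMT KO. In DNMT KO the H3 sum overlapped, at 2.78, 1.14 and 1.25 RPKM at ESC D0 and 1.44, 3.15 and 2.26 at EB D8, and so did that of DNMT WT.

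Of the genes, 42 passed the filter of at least 1 RPKM in at least 2 libraries and were tested: 40 of the 43 described, with Hist2h2aa1 and Hist1h2bf, while the described genes Hist2h3b, Hist1h4j and Hist1h3f did not pass. A gene is called where limma gave an adjusted p under 0.05 over all 15267 genes tested and a change of at least 1 in size on the log2(RPKM + 0.5) scale, which understates the change of low genes. Changes below are on that scale, with a standard error (SE). Over 24 comparisons there were 106 calls of 24 genes, and 18 genes were never called. How many of all genes were called in any comparison was not counted, so these totals are a description only. Shares of all genes called are given below, by comparison, for the main fits only. Counts under other settings or with a library left out have no such share beside them and are a description only. Comparisons of a line with its own ESC D0 libraries, and those of both kinds that use the same parental libraries, share those samples.

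H2A genes gave the largest knockout differences, and they lay in TET. Hist1h2ak (chr13:21753435-21753827, minus strand) was at 25.2, 21.2 and 27.2 RPKM in TET WT at ESC D0, 63.6, 47.5 and 57.8 at EpiLC D2 and 15.5, 19.3 and 20.9 at EB D8. In TET KO it was at 0.924, 2.18 and 0 RPKM at ESC D0, 1.62, 0 and 11.0 at EpiLC D2 and 0.427, 1.04 and 1.09 at EB D8. Every TET WT library of each of these conditions lay above every TET KO library.

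Hist1h2ak was lower in TET KO at all 7 conditions, by 4.16 (SE 0.52) at ESC D0 (adjusted p = 8.3e-05), and with log2 changes of -4.06 at EpiLC D1, -4.44 at EpiLC D2, -3.39 at EB D2 and -4.62 at EB D4, then -4.77 (EB D6) and -3.85 (EB D8). At EB D2, where TET KO had 2 libraries, the call of Hist1h2ak was lost when either was left out (log2 change -3.86 without replicate 1, adjusted p = 0.053, and -2.93 without replicate 2, adjusted p = 0.12).

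Hist1h2ap (chr13:21833026-21833507, minus strand) and Hist1h2ao (chr13:21810465-21810944, plus strand) have identical coding sequences, with 0 of 390 bases different, so their reads may not be separable. Hist1h2ap was at 12.8, 11.5 and 13.0 RPKM in TET WT at ESC D0 and at 1.51, 0 and 0.381 in TET KO. Hist1h2ao was at 8.48, 10.6 and 7.82 RPKM in TET WT and at 0.189, 0.179 and 0.192 in TET KO. The lines did not overlap for either gene.

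Both genes were called lower in TET KO at all 7 conditions. The log2 changes of Hist1h2ap lay between -4.64 (EpiLC D2) and -2.85 (EB D8), and those of Hist1h2ao between -4.69 (EB D6) and -3.14 (EB D8). For Hist1h2ao at ESC D0 the 3 TET KO libraries held 3 reads against 143 in TET WT, a ratio of reads per depth of 47.6 with a 95% exact counting interval of 16 to 233. Such intervals take the reads as independent, which was not tested. At EB D2 and EB D6 TET KO held 2 reads each, with ratios of 69.1 (interval 18.9 to 574) and 139 (interval 38.2 to 1156).

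TET WT stood apart from the DNMT lines as well as from TET KO. Hist1h2ak ran from 15.5 to 63.6 RPKM in TET WT (median 41.1) and from 0 to 26.4 in the other lines. Hist1h2ap ran from 7.93 to 33.7 RPKM in TET WT, and from 0 to 37.1 elsewhere, or to 7.56 without DNMT KO EB D2 replicate 2. Hist1h2ao ran from 7.80 to 24.7 RPKM in TET WT and from 0 to 3.81 elsewhere. The 3 lines other than TET WT overlapped for all 3 genes, and differences were not tested across the TET and DNMT pairs.

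These 3 genes, singled out after their values were seen, made up 81.5% of the H2A sum in TET WT and 26.3% in TET KO, 38.7% in DNMT WT and 45.3% in DNMT KO. The other 15 H2A genes summed to 4.85 to 38.9 RPKM in TET WT (median 16.7) and 2.46 to 51.7 in the other lines (median 7.61), which overlap. Among them Hist1h2ag was called lower in TET KO at ESC D0 (log2 change -2.35), EpiLC D2 (-1.27) and EB D6 (-2.38), and Hist1h2ah at ESC D0 (-2.17) and EpiLC D2 (-2.30). Hist1h2ai went the other way, at 0.972, 2.18 and 1.83 RPKM in TET KO at EpiLC D2 and 0.223, 0.235 and 0.230 in TET WT, a change of 1.52 (adjusted p = 0.0016) that rests on 18 reads against 3, a ratio of 7.47 (interval 2.18 to 39.6). The EpiLC D2 groups of Hist1h2ag touched at 6.68 RPKM, and its call was lost without TET KO replicate 1 (adjusted p = 0.055) or replicate 2 (adjusted p = 0.056). Hist1h2ah held 3 reads in TET KO at ESC D0 against 48, a ratio of 16 (interval 5.15 to 80.1). The coding sequences of Hist1h2ai and Hist1h2ag differ in 4 bases, so reads of these 2 genes may be shared in part.

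**Figure D1:**
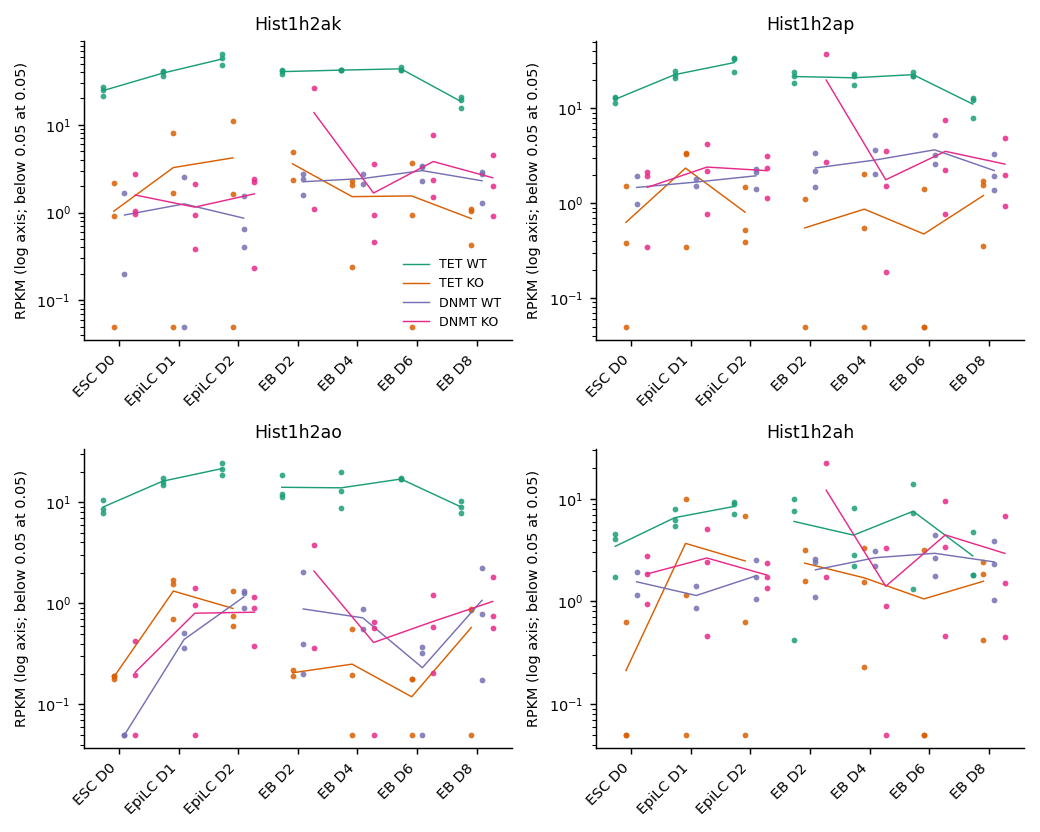
RPKM (log axis) of 4 H2A genes by condition and line. Points are libraries, with values under 0.05 RPKM drawn at 0.05, and lines join group means within the ESC to EpiLC series and within the embryoid bodies. For Hist1h2ak, Hist1h2ap and Hist1h2ao the TET WT libraries lie above TET KO at every condition, and for Hist1h2ah they overlap at all conditions but ESC D0 and EpiLC D2.

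Hist3h2a (chr11:58954685-58956830, plus strand), an H2A gene outside the large clusters, went the other way. At EB D8 it was at 10.2, 9.02 and 8.66 RPKM in TET KO and 3.37, 2.25 and 3.34 in TET WT, with 2.15, 2.28 and 2.50 in DNMT WT and 1.85, 2.46 and 1.71 in DNMT KO. The TET KO libraries were above all others at that day. The difference from TET WT was 1.51 (SE 0.14, adjusted p = 1.7e-06), and Hist3h2a was also called higher in TET KO at EpiLC D2 (1.22), EB D2 (1.21) and EB D6 (1.27).

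At EpiLC D2 the call of Hist3h2a was lost without TET KO replicate 1 (0.98) or TET WT replicate 2 (0.94). The gene overlaps Trim17 on the same strand, which ran from 3.83 to 4.58 RPKM in TET KO at EB D8 and from 1.0 to 1.79 in TET WT, so reads of the 2 genes may not be separable. In TET KO at that day the summed erythroid, endoderm and fibroblast markers were lower, at 25.5 to 37.2, 62.0 to 65.0 and 51.2 to 62.4 RPKM against 8041 to 8656, 795 to 922 and 207 to 274 in TET WT, and the summed naive and EpiLC markers were higher. Their part in this difference was not tested.

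Among H2B genes, Hist1h2bc (chr13:23684199-23692908, plus strand) was higher in TET KO. It was at 4.82, 4.75 and 4.75 RPKM in TET KO at EB D6 and at 0, 0.0775 and 1.16 in TET WT. At EB D8 it was at 3.70, 4.47 and 4.45 RPKM in TET KO and at 0.844, 1.46 and 0.774 in TET WT. The groups did not overlap at either day.

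Hist1h2bc was called higher in TET KO at 5 of 7 conditions: EpiLC D2 (1.19), EB D2 (1.13), EB D4 (1.40), EB D6 (2.69, SE 0.35, adjusted p = 6.5e-05) and EB D8 (1.65, SE 0.20, adjusted p = 1.4e-05). The EB D2 call was lost without TET KO replicate 2 (0.68, adjusted p = 0.071). It was also called in both knockouts at EB D4 and EB D6. In DNMT KO it was at 1.03, 1.27 and 0.477 RPKM at EB D4 against 0.0725 and 0.0780, and at 1.69, 1.41 and 1.28 at EB D6 against 0.309, 0.201 and 0.846, changes of 1.27 (adjusted p = 0.0026) and 1.10 (adjusted p = 0.016).

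The DNMT WT libraries at EB D4 held 2 reads of Hist1h2bc against 36, a ratio of 12.0 (interval 3.09 to 103). At EB D6 that call was lost without DNMT KO replicate 1 (1.01, adjusted p = 0.053), DNMT WT replicate 1 (1.01, adjusted p = 0.050) or DNMT WT replicate 2 (0.91, adjusted p = 0.066). The coding sequence of Hist1h2bc differs from that of Hist1h2bq in 2 bases, so its reads may be shared in part.

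Other H2B genes gave single calls. Hist3h2ba was lower in TET KO at EB D4, at 1.97, 1.31 and 2.47 RPKM against 4.77, 5.45 and 4.07 (-1.14, adjusted p = 0.0067), a call lost without TET KO replicate 2 (-0.95). In DNMT KO Hist3h2ba was higher at EB D2, at 7.05 and 4.52 RPKM against 1.42, 2.34 and 1.59 (1.45, adjusted p = 0.019), a call lost without DNMT KO replicate 2 (adjusted p = 0.095), DNMT WT replicate 1 (adjusted p = 0.060) or DNMT WT replicate 3 (adjusted p = 0.063). Neither pair of groups overlapped.

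Hist1h2bj was lower in TET KO at EB D4 (-1.62, adjusted p = 0.030), a call lost without TET KO replicate 1 (adjusted p = 0.10), TET KO replicate 3 (adjusted p = 0.10) or TET WT replicate 3 (adjusted p = 0.054). Hist1h2bm was lower at EpiLC D1 (-1.61), with 1 read in TET KO against 33, a ratio of 35.0 (interval 5.86 to 1423). Hist1h2bk was higher in TET KO at EpiLC D2 (1.06), a call lost without TET KO replicate 3 (0.92) or TET WT replicate 3 (0.69), and under centring on library medians (0.97).

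H1 genes encode linker histones, which bind the DNA that enters and leaves the nucleosome. Hist1h1c (chr13:23738808-23740367, plus strand) was higher in TET KO at EB D6, at 7.96, 10.3 and 9.73 RPKM against 2.24, 1.26 and 1.72. The difference was 2.15 (SE 0.16, adjusted p = 5.8e-07), and the groups did not overlap. Hist1h1a (chr13:23763666-23764406, plus strand) was higher in TET KO at EpiLC D2, at 15.3, 12.7 and 13.6 RPKM against 7.34, 3.75 and 5.99 (1.26, SE 0.23, adjusted p = 0.00085). Hist1h1b was higher there too, at 1.54, 1.92 and 2.1 RPKM against 0.354, 0.249 and 0.853 (1.30, adjusted p = 0.015), a call lost without TET WT replicate 2 (adjusted p = 0.062).

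H3 and H4 genes had fewer reads. At EpiLC D2 Hist1h3h was at 1.55, 2.08 and 4.38 RPKM in TET KO against 0.640, 0.675 and 0 in TET WT (1.60, adjusted p = 0.0020). Hist1h3c was higher in TET KO there as well (1.05), a call lost without TET KO replicate 3 (0.62) or TET WT replicate 2 (0.86) and under centring on library medians (0.96). Hist1h3g was lower in TET KO at EB D4 (-1.23), a call lost without the odd library TET WT EB D4 replicate 2 (-0.83, adjusted p = 0.063) and without any 1 of the 3 TET KO libraries (adjusted p between 0.063 and 0.094).

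Hist1h4b was at 1.2, 2.97 and 2.06 RPKM in TET KO at EpiLC D1 against 0.233, 0.675 and 0 in TET WT (1.54, adjusted p = 0.0046). At EB D4 Hist1h4b was lower, at 0.234, 0.226 and 0.674 RPKM against 1.23, 8.76 and 2.18, where 8.76 is the odd library. The EB D4 change was -2.03 (adjusted p = 0.044) and -1.33 (adjusted p = 0.027) without that library. It was lost without any 1 TET KO library (adjusted p between 0.072 and 0.12) or TET WT replicate 3 (adjusted p = 0.061). Hist1h4b also has an antisense neighbour, 4930558J22Rik, and whether counting used strand is not given in the sources used here. Hist1h4i was higher in DNMT KO at EB D6, at 1.67, 1.71 and 1.5 RPKM against 0.368, 0.319 and 0.856 (1.10, adjusted p = 0.021), a call lost without DNMT KO replicate 1 (0.052) or replicate 2 (0.056), or DNMT WT replicate 1 (0.062) or replicate 2 (0.071), each an adjusted p.

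Set against all genes tested, the counts of called histone genes in TET KO were as follows. At ESC D0 none of 42 was higher and 5 were lower, where 2.17% of all genes were lower. At EpiLC D1 1 was higher and 4 were lower (all genes 3.35% and 3.28%), and at EpiLC D2 8 were higher and 5 lower (4.80% and 3.10%). At EB D2 2 were higher and 3 lower (4.70% and 2.71%), and at EB D4 1 was higher and 7 were lower (7.60% and 1.87%). EB D6 had 3 higher and 4 lower (3.24% and 1.78%), and EB D8 had 2 higher and 3 lower (5.84% and 4.14%). Hist1h2ak, Hist1h2ao and Hist1h2ap were 3 of the lower genes at each condition. Without TET KO EpiLC D1 replicate 3 the count at EpiLC D1 was 8, and without any 1 of the TET KO libraries at EB D4 the count there was 5. Centring on library medians gave 2 higher and 4 lower at EpiLC D1, and 6 higher and 6 lower at EpiLC D2.

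The EB D4 comparison of TET KO rests in part on the odd library. The median change of the 42 genes there was -1.11, against 0.19 over all genes. Only 36 of the 42 pass the filter in the other libraries, so the -1.11 includes genes tested only through the odd library. Leaving the odd library out gave 2 higher and 7 lower calls. The median of all genes was itself 0.11 at EB D8, and under 0.1 in size in the other TET KO comparisons.

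In DNMT KO few histone genes were called. None was called at ESC D0, EpiLC D1 or EpiLC D2, where limma called 1.03%, 0.950% and 1.59% of all genes in either direction. At an unadjusted limma p under 0.05 there were 2, 3 and 1 of 42, against 4850, 3561 and 3169 of all 15267 genes. voom in limma on recovered reads called 2 at ESC D0 and 1 at EpiLC D1. At EB D2 1 was higher (all genes 0.937%), at EB D4 1 (4.51%) and at EB D6 2 (11.1%). At EB D8 none was called by limma where 18.9% of all genes were, and 2 were called by voom. The shares of all genes that voom called are not given here. At an unadjusted limma p under 0.05 there were 6 of 42 at EB D8, against 10733 of all 15267 genes.

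Single libraries moved these DNMT KO counts. At ESC D0 the count was 1 without DNMT KO replicate 1 or 3, at EpiLC D1 it was 1 without the DNMT WT replicate that has no number, and at EB D8 it was 1 without DNMT WT replicate 2. At EB D2 it was 0 without DNMT KO replicate 2, DNMT WT replicate 1 or DNMT WT replicate 3, and 6 without DNMT KO replicate 3, which leaves only the library of high H2A genes. At EB D4 it was 2 without either DNMT WT library, and at EB D6 it was 0 without DNMT KO replicate 1, DNMT WT replicate 1 or DNMT WT replicate 2.

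**Figure D2:**
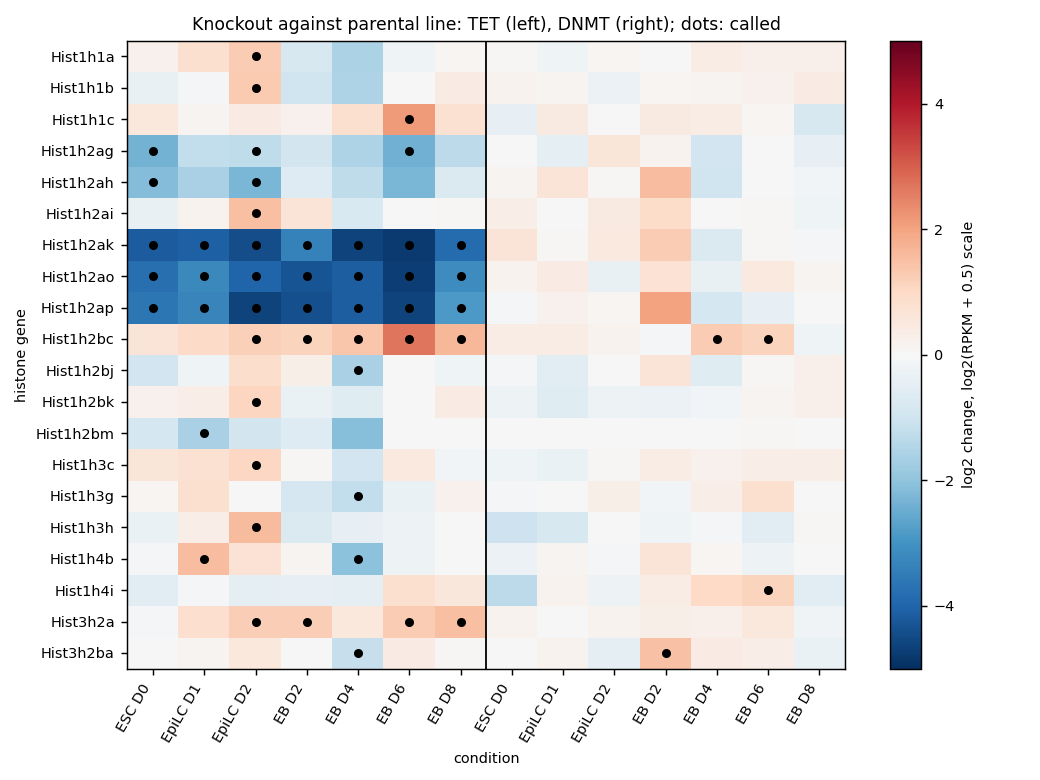
Log2 change of each knockout against its parental line, log2(RPKM + 0.5) scale, for the 20 histone genes called in at least 1 knockout comparison. Columns are conditions, TET on the left and DNMT on the right, and black dots mark calls. The blue band is Hist1h2ak, Hist1h2ao and Hist1h2ap in TET KO, and the right side holds 4 calls.

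With differentiation, a small group of histone genes rose in every line. Hist3h2ba (chr11:58948920-58949533, plus strand), an H2B gene, held 1 read over the 3 TET WT libraries at ESC D0, none in TET KO, 2 in DNMT WT and none in DNMT KO. At EB D8 it was at 3.44, 3.49 and 3.18 RPKM in TET WT, 4.37, 2.67 and 3.63 in TET KO, 3.07, 2.81 and 3.14 in DNMT WT and 1.91, 2.77 and 2.13 in DNMT KO. No line overlapped between the conditions.

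The fitted changes of Hist3h2ba at EB D8 were 2.61 in TET WT, 2.66 in TET KO, 2.45 in DNMT WT and 2.11 in DNMT KO (adjusted p between 4.8e-14 and 3.3e-12). In reads per depth Hist3h2ba was 24.4-fold higher in TET KO and 15-fold higher in DNMT KO, with the group of no read set to a floor of 3 reads. Such folds leave out the counting error of the higher group and are not ends of an interval. The ratio was 69.7 (interval 12.1 to 2787) in TET WT and 21.5 (interval 5.72 to 181) in DNMT WT. At EpiLC D2 Hist3h2ba was called higher in TET WT (2.86), TET KO (3.41) and DNMT WT (1.04), the last lost without DNMT WT EpiLC D2 replicate 1 (0.73). The DNMT KO libraries there were at 1.04, 0.425 and 0.130 RPKM, which was not called.

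At EpiLC D2 the ratio for Hist3h2ba was 84.9 (interval 14.8 to 3394) in TET WT and 6.46 (interval 1.56 to 57.2) in DNMT WT. On the floor of 3 reads Hist3h2ba was 46.5-fold higher in TET KO. The counting intervals cover counting error only, and that only if the reads are independent.

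Hist1h1c rose at EB D8 in all 4 lines. It went from 0.737, 1.21 and 0.680 RPKM to 10.5, 9.91 and 7.67 in TET WT and from 1.51, 1.21 and 1.65 to 18.3, 15.5 and 14.4 in TET KO. In DNMT WT it went from 2.05 and 1.41 to 8.71, 8.17 and 10.4, and in DNMT KO from 1.28, 0.855 and 1.45 to 3.93, 5.11 and 5.93. The changes of Hist1h1c were 2.85 (SE 0.18), 3.08 (SE 0.18), 2.11 (SE 0.20) and 1.70 (SE 0.18) in that order of lines, with no overlap in any (adjusted p between 1.5e-12 and 2.8e-08).

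Hist3h2a rose at EB D8 in all 4 lines as well, from 0.454, 0.231 and 0.342 RPKM at ESC D0 in TET WT and 0.465, 0.280 and 0.129 in TET KO to the levels given above. Its changes were 2.04 in TET WT, 3.65 in TET KO, 1.78 in DNMT WT and 1.44 in DNMT KO. Hist1h2bc was called higher at EB D8 in TET KO (1.94) and DNMT WT (1.34). Hist1h4i was called higher at EB D8 in TET KO (1.75), and in DNMT KO (1.03), the latter lost without EB D8 replicate 1 (0.91) or 2 (0.91), without ESC D0 replicate 1 (0.88) or 2 (0.89), and under centring on library medians (0.77).

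**Figure D3:**
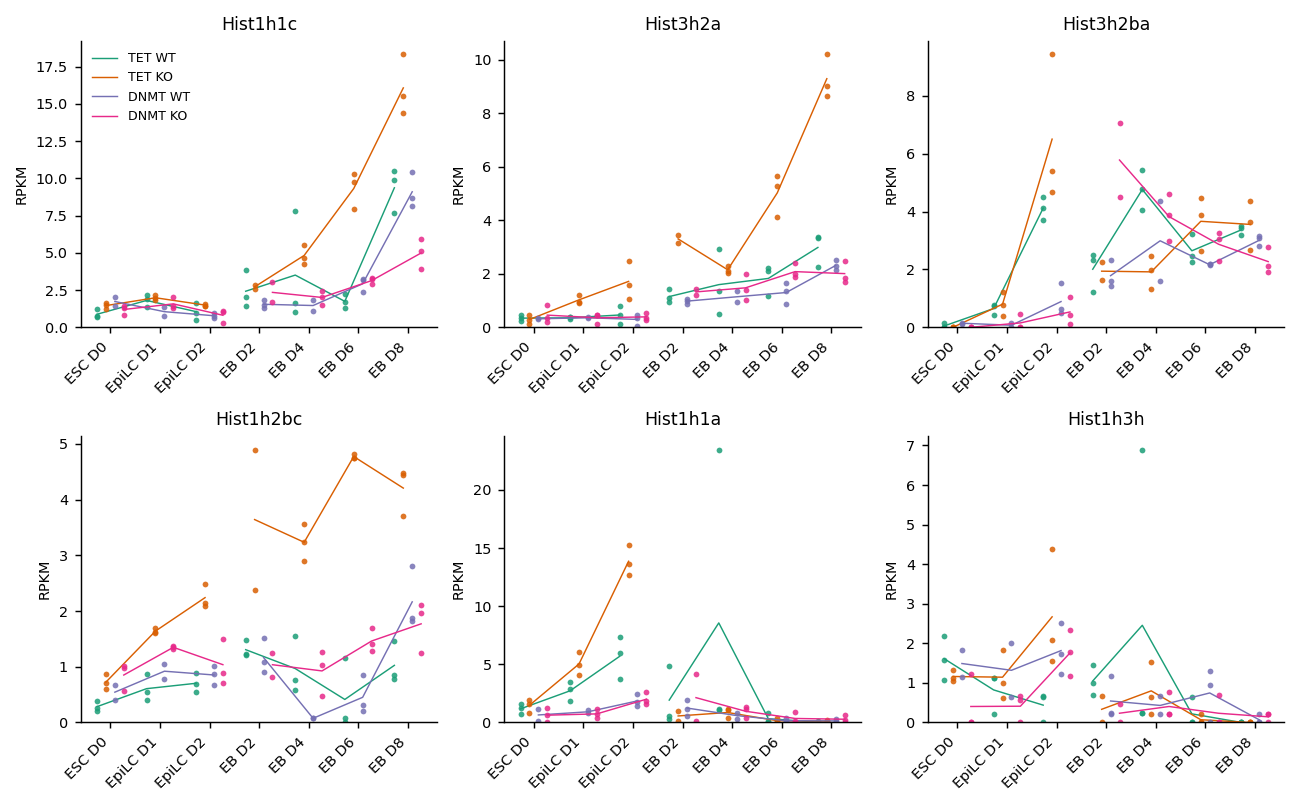
RPKM of 6 histone genes by condition and line. Points are libraries and lines join group means within the ESC to EpiLC series and within the embryoid bodies. Hist1h1c, Hist3h2a and Hist3h2ba are higher at EB D8 than at ESC D0 in every line, Hist1h1a is highest at EpiLC D2 in TET KO, and the single TET WT points of 23.5 (Hist1h1a) and 6.90 (Hist1h3h) at EB D4 are the odd library.

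Hist1h1a rose at EpiLC D2 and was low at EB D8. In TET WT it was at 1.55, 1.21 and 0.771 RPKM at ESC D0, 7.34, 3.75 and 5.99 at EpiLC D2 and 0, 0.103 and 0 at EB D8, and in TET KO at 0.858, 1.97 and 1.61, then 15.3, 12.7 and 13.6, then 0.227, 0 and 0.116. The change at EpiLC D2 was 1.87 in TET WT, 2.90 in TET KO, 1.2 in DNMT WT and 1.22 in DNMT KO. The DNMT WT call of Hist1h1a was lost without ESC D0 replicate 1 (0.47, adjusted p = 0.44) or EpiLC D2 replicate 1 (adjusted p = 0.066), and the DNMT KO call without ESC D0 replicate 1 (0.81, adjusted p = 0.068).

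At EB D8 Hist1h1a was called lower in TET WT (-1.45) and TET KO (-1.57). It held 1 read at EB D8 in TET WT against 29, a ratio of 32.5 (interval 5.38 to 1326), and 3 in TET KO against 37, a ratio of 13.2 (interval 4.16 to 66.7).

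Of the H3 genes, Hist1h3h was called lower at EB D8 in 3 lines, and Hist1h3c and Hist1h3a in TET KO. Hist1h3h was at 1.08, 2.17 and 1.59 RPKM in TET WT at ESC D0 and had no read at EB D8, 8.21-fold lower on the floor of 3 reads. In TET KO it was at 1.33, 1.04 and 1.12 RPKM and had no read at EB D8, 5.69-fold lower on that floor. In DNMT WT it fell from 14 reads to 1, a ratio of 21.8 (interval 3.32 to 924). It was not called in DNMT KO, where it was at 1.21, 0 and 0 RPKM at ESC D0. Hist1h3c was lower at EB D8 in TET KO, from 2.02, 0.953 and 1.90 RPKM to 0, 0.130 and 0 (-1.72, adjusted p = 0.00028).

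In TET KO Hist1h2an and Hist1h3a had no read at EB D8 against 16 reads each at ESC D0, 5.69-fold lower on the floor of 3 reads. For both genes the ESC D0 libraries reached down to 0 RPKM. The call of Hist1h2an was lost without ESC D0 replicate 1 (-0.40), and that of Hist1h3a without ESC D0 replicate 1 (-0.84) or 3 (-0.70).

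At EpiLC D2 TET KO had the most calls. Beside Hist3h2ba and Hist1h1a these were led by Hist1h2bj (2.23, with 1 read at ESC D0 against 33, a ratio of 41.5, interval 6.94 to 1686) and Hist1h2ag (2.00, from 0.187, 0.884 and 0.190 RPKM to 2.1, 1.76 and 6.68). In TET WT Hist1h2ao and Hist1h2ap were called higher (1.22 and 1.24) and Hist1h3h lower (-1.08), the last lost without EpiLC D2 replicate 3 (-0.84) or ESC D0 replicate 2 (-0.89) and under centring on library medians (-0.78). The call of Hist1h2ap was kept in 12 alternatives and lost in 2, with an adjusted p of up to 0.068. Hist1h4n was called higher in TET WT (1.03, with 3 reads against 18, a ratio of 6.07, interval 1.77 to 32.2) and lost its call without EpiLC D2 replicate 3 (0.70), ESC D0 replicate 2 (0.94) or ESC D0 replicate 3 (0.90).

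In DNMT WT Hist1h2ao was called higher at EpiLC D2 (1.31) and EB D8 (1.01), against no read at ESC D0. On the floor of 3 reads Hist1h2ao was 4.30-fold and 4.27-fold higher. Its EB D8 call was lost without EB D8 replicate 2 (0.49), ESC D0 replicate 1 (adjusted p = 0.083) or ESC D0 replicate 2 (adjusted p = 0.10), and under centring on library medians (0.71). In DNMT KO Hist1h3h (1.20), Hist1h3c (1.19) and Hist1h2ae (1.13) were called higher at EpiLC D2, and Hist1h2ae (1.01) at EB D8. Hist1h3h lost its call without ESC D0 replicate 3 (0.98). Hist1h2ae overlapped between EB D8 and ESC D0 in no library, and lost its EB D8 call without EB D8 replicate 2 (0.96) or 3 (0.72) or ESC D0 replicate 2 (0.94) or 3 (0.93). Its EpiLC D2 call was lost without EpiLC D2 replicate 2 (adjusted p = 0.079) or 3 (adjusted p = 0.19) or ESC D0 replicate 2 (adjusted p = 0.089) or 3 (adjusted p = 0.092).

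The counts with differentiation stand beside the shares of all genes tested. At EpiLC D2 5 of 42 were higher and 1 lower in TET WT (all genes 11.9% and 15.8%), 11 higher in TET KO (11.8%), 3 higher in DNMT WT (7.47%) and 4 higher in DNMT KO (7.51%). At EB D8 3 were higher and 2 lower in TET WT (20.3% and 12.4%), 5 and 5 in TET KO (18.4% and 9.67%), 5 and 1 in DNMT WT (23.3% and 14.4%), and 5 higher in DNMT KO (16.8%). The median change of the histone genes at EpiLC D2 in TET KO was 0.63, against -0.10 over all genes, and without TET KO EpiLC D2 replicate 2 the count there was 17. Without TET WT ESC D0 replicate 1 the count at EB D8 in TET WT was 8, and without DNMT WT ESC D0 replicate 2 the count at EpiLC D2 in DNMT WT was 6. Centring on library medians moved the median of all genes in TET WT to 0.30 at EpiLC D2 and -0.22 at EB D8, and the calls there to 11 higher and 0 lower, and 3 higher and 5 lower.

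The response to EB D8, taken from ESC D0, was compared between knockout and parental line. Hist3h2a rose by 1.61 (SE 0.28) more in TET KO than in TET WT (adjusted p = 7.6e-05). Hist1h4i (1.12, adjusted p = 0.049) and Hist1h2bc (1.01, adjusted p = 0.0042) also passed, and in the DNMT pair Hist1h3h did (1.08, adjusted p = 0.014). These were 3 and 1 of 42, where 6.39% and 10.8% of all genes had a larger response in the knockout. Without TET KO EB D8 replicate 2 or replicate 3 the TET count was 1. Without DNMT WT ESC D0 replicate 1, DNMT KO ESC D0 replicate 2 or DNMT KO ESC D0 replicate 3 the DNMT count was 0.

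Genes that work with the histone genes were also read. Slbp, whose product binds the stem-loop, ran from 13.4 to 30.8 RPKM over all libraries, and was lower at EB D8 than at ESC D0 by less than the limit of 1 in every line, with log2 changes of -0.63 in TET WT, -0.57 in TET KO, -0.37 in DNMT WT and -0.65 in DNMT KO. Of 18 genes of histone mRNA processing, none was called in either knockout at EB D8. Of all genes, 5.84% were called higher and 4.14% lower there in TET KO, and 18.9% in either direction in DNMT KO. At EB D8 against ESC D0 Zfp473 alone was called lower in TET WT (-1.26) and in DNMT WT (-1.05).

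Replacement histones are made outside S phase as well, from polyadenylated mRNA. H1f0, the replacement linker histone, rose from 23.4 to 25.0 RPKM at ESC D0 to 115 to 129 at EB D8 in TET WT, and its changes were 2.32, 2.40, 2.70 and 1.75 in TET WT, TET KO, DNMT WT and DNMT KO. It was lower in DNMT KO than in DNMT WT at EB D8 (-1.33, adjusted p = 2.5e-10). H3f3b, which encodes replacement H3, ran from 161 to 372 RPKM and was not called at EB D8 in any line. Of the 11 genes of this list 3 were called higher and 1 lower at EB D8 in TET WT, 3 and 0 in TET KO, 3 and 1 in DNMT WT, and 2 and 0 in DNMT KO. Of all genes, 20.3% were higher and 12.4% lower in TET WT, and 18.4% and 9.67% in TET KO. The shares were 23.3% and 14.4% in DNMT WT, and 16.8% were higher in DNMT KO.

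Of 20 genes of S phase, 6 were called lower at EB D8 than at ESC D0 in TET WT (all genes 12.4%), 5 in TET KO (9.67%), 9 in DNMT WT (14.4%) and 4 in DNMT KO, and none was called higher. Among them Mcm5, a subunit of the replicative helicase, changed by -1.47 in TET WT and -1.30 in TET KO. Mki67, a marker of cycling cells, changed by 0.96, 0.54, 0.91 and 0.75 in the 4 lines and was not called. Of 11 genes of G2 and M phase, 2 were called lower in TET KO and 1 in DNMT WT, and none in the other lines. Of 10 genes of cell cycle exit, 2 were called higher in each line, and 1 lower in all but DNMT KO. Of all genes, 20.3% were called higher in TET WT, 18.4% in TET KO, 23.3% in DNMT WT and 16.8% in DNMT KO. The shares called lower are those given above for S phase, where none is given for DNMT KO. Of 11 histone chaperone genes, 1 was called lower in TET WT and in TET KO and 2 in DNMT WT, with Hat1, a histone acetyltransferase gene, among them in each (-1.66, -1.45 and -1.49), and none in DNMT KO, while Rbbp7 was called higher in both wild-type lines.

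**Figure D4:**
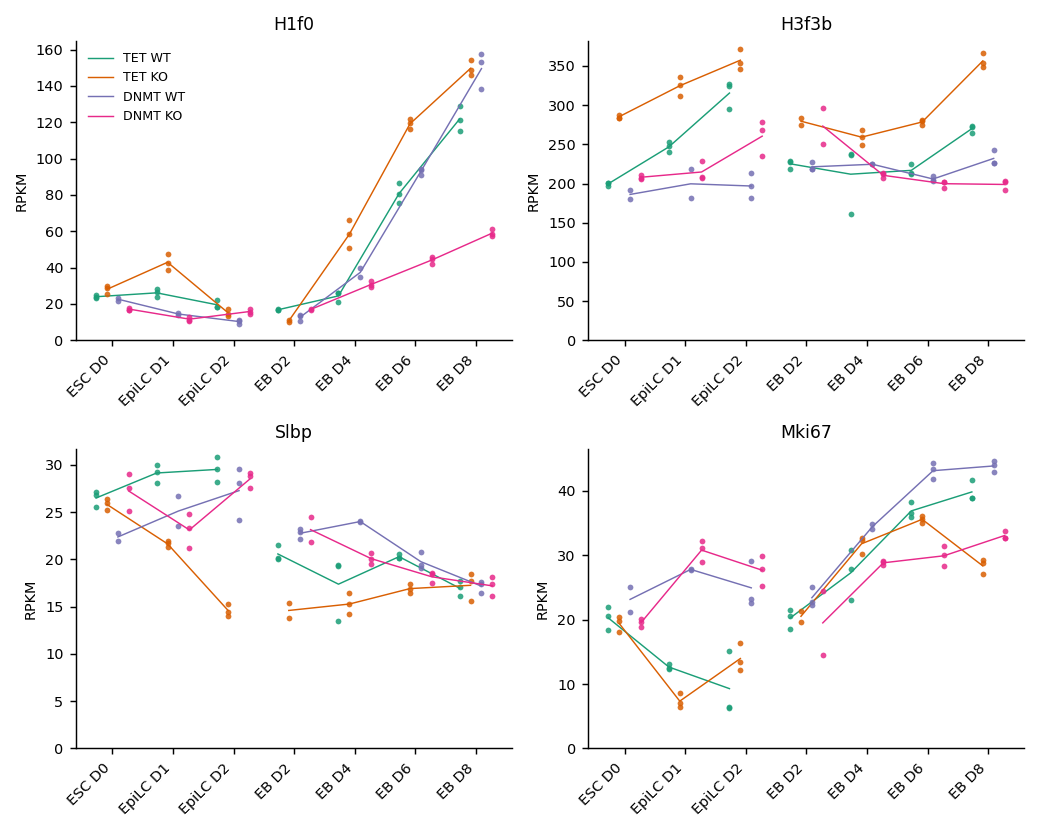
RPKM of H1f0 and H3f3b (replacement histones), Slbp (stem-loop binding protein) and Mki67 (a marker of cycling cells) by condition and line. Points are libraries and lines join group means within the ESC to EpiLC series and within the embryoid bodies. H1f0 is at 115 RPKM or more in TET WT at EB D8 and at 25.0 or less at ESC D0, and Slbp stays between 13.4 and 30.8.

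Cell type markers also differed between the knockouts and their parental lines. At EB D8 all 8 erythroid markers were called lower in TET KO and in DNMT KO (median log2 change -5.95 and -3.84). Endoderm markers were called lower for 4 and 5 of 6 and fibroblast markers for 3 and 5 of 6, while all 4 EpiLC markers were called higher in both knockouts. Of 7 naive markers 3 were called higher and 3 lower in TET KO, and 4 higher in DNMT KO. The shares of all genes were 5.84% higher and 4.14% lower in TET KO, and 18.9% in either direction in DNMT KO. Naive markers summed to 58.6 to 61.8 RPKM in TET WT, 118 to 145 in TET KO, 46.0 to 50.2 in DNMT WT and 578 to 594 in DNMT KO at EB D8. Alas2 had no read in TET KO at that day, and every other marker had reads in each line. Whether these differences in makeup account for any histone gene was not tested. At ESC D0 5 erythroid markers had no read in TET KO, DNMT WT or DNMT KO and 4 had none in TET WT.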

How the data were processed

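Strand-specific libraries after oligo-dT capture were sequenced, per the labels' protocols. The submitters' processing notes name HISAT2 2.1.0, Trim Galore 0.6.1, cutadapt 1.18 and the build GRCm38. Values in the 1 deposited table are log2 RPKM per gene, made by the authors. Whether counting used strand, and how reads matching several copies were handled, is not given in the sources used here. Depths and reads were worked back from these values and GENCODE M21 gene lengths, on the assumption that the lowest value of a gene is 0.9 reads. Low values then fell on whole reads (98.9% of values of 1 to 100 reads within 0.1), with 0.9 reads standing for none, which is printed as 0. Of 35269 entries, 39 repeats of an identifier were left out.

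The 15267 genes that reached 1 RPKM in 2 or more of 79 libraries were fitted on log2(RPKM + 0.5) with limma 3.58.1 in R 4.3.3 (eBayes with trend and robust settings), with the libraries of all 4 lines at the conditions compared, with Benjamini-Hochberg adjustment across all genes fitted. Adjusted p-values are limma's throughout, and changes were tested two-sided. On simulated data with 200 changed genes, all at 5 RPKM or more and so above the level of most histone genes, for TET KO against TET WT at EB D8, all were recovered at log2 changes of 1.5 and 3, with 0 false calls. At EB D2, with 2 TET KO libraries, 100% were recovered at 1.5 and 98% at 3, with 1 false call. A ratio of reads has an exact 95% counting interval, which takes recovered reads as independent. Recovered reads of some genes, such as Hist1h4i, were mostly odd numbers at low counts. They may therefore not be single independent reads, and the intervals may be too narrow. Where a group had no read, the fold sets that group to 3 reads and has no interval. In 1 column, of DNMT WT at EpiLC D1, the name matched only its group, and it served as a replicate without a number.

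Sequences are from GENCODE M21 (transcripts) and RefSeq (promoters). The genes, lists and tests were chosen with earlier results of these data known. Genes are named with values where they are among the 3 of each type with the highest mean over group means, among the 4 largest called changes in a direction of a comparison, called in both knockouts at a condition or at 4 or more of 7 conditions, or next to the limit of 1 RPKM, beside a few others that are singled out. Of the lists, up to 3 called genes and Slbp, H3f3b, H1f0 and Mki67 are named. Alternatives were other pseudocounts, filters, centring, a replicate block, the compared groups alone, voom on recovered reads, and each library left out.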

Additional observations from a re-analysis of the deposited data

Results flagged for a closer look

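In 4 cases the response of a histone gene to EB D8 differed between a knockout and its parental line by a test of the difference itself in limma. Hist3h2a had a larger response in TET KO by 1.61 on the log2(RPKM + 0.5) scale. For Hist1h4i the difference in the TET pair was 1.12, and it fell short of the threshold in most alternatives, among them 0.84 (adjusted p = 0.15) without TET WT ESC D0 replicate 2. For Hist1h2bc the difference in the TET pair was 1.01, and it was under 1 without any of 6 libraries (0.89 to 0.97). Over all alternatives its call was kept in 9 and lost in 10. The change there went down to 0.78 and the adjusted p up to 0.31. For Hist1h3h the difference in the DNMT pair was 1.08, and it was 0.83 (adjusted p = 0.095) without DNMT WT ESC D0 replicate 1, 0.87 without DNMT KO ESC D0 replicate 2 and 0.86 without DNMT KO ESC D0 replicate 3.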

How the results depend on the processing

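Of 106 called changes, 67 kept their call under every setting run and 39 lost it under at least 1, and none changed sign. Counts of called histone genes moved by over 1.5 times in 71 recomputations and stayed within that in 271. The shares of all genes called under these settings are not given here. The counts therefore cannot show whether a setting called more of all genes. Summed levels of a type moved by more than the spread between replicates in 147 and did not in 273. With a pseudocount of 0.1 the count was 9 for TET KO at ESC D0, 5 and 1 for DNMT KO at EB D6 and EB D8, 9 for TET WT at EB D8 against ESC D0, and 6 and 7 for DNMT WT and DNMT KO at EpiLC D2 against ESC D0. With a pseudocount of 1 it was 8 and 5 for TET KO at EpiLC D2 and EB D4, 0 for DNMT KO at EB D4 and EB D6, 0 for both DNMT lines at EpiLC D2, 3 for DNMT KO at EB D8 against ESC D0, and 1 and 0 for the TET and DNMT differences of responses. With no filter it was 5 for TET KO at EB D4 and 0 for DNMT KO at EB D2. With a filter of 5 RPKM, under which fewer genes were tested, it was 3, 8 and 4 for TET KO at EpiLC D1, EpiLC D2 and EB D4, 0 for DNMT KO at EB D4 and EB D6, 4 and 5 for TET KO at EpiLC D2 and EB D8 against ESC D0, 2 and 3 for DNMT KO in those comparisons, and 1 and 0 for the differences of responses.

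Centring on library medians gave 11 and 8 for TET WT at EpiLC D2 and EB D8 against ESC D0, 19 for TET KO at EpiLC D2, 3 for DNMT KO at EB D8 and 1 for the TET difference of responses. For TET WT the split at EpiLC D2 became 11 higher and 0 lower, and at EB D8 3 higher and 5 lower. The groups of the comparison alone gave 0 for DNMT KO at EB D2. voom on recovered reads gave 8 and 9 for TET KO at ESC D0 and EpiLC D1, 2, 1, 2, 5 and 2 for DNMT KO at ESC D0, EpiLC D1, EB D4, EB D6 and EB D8, 12 and 9 for TET WT at EpiLC D2 and EB D8 against ESC D0, and 11 and 8 for DNMT KO there. The cause of these moves was not tested.

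Replicate numbers were not used to pair the samples in the main fits. Correlations of same-numbered libraries ran from -0.24 to 0.29. With so few libraries per group they cannot show whether same-numbered libraries were handled together. The replicate block gave a count of 0 for DNMT KO at EB D2 and moved no other count by over 1.5 times.

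Leaving out 1 library at a time gave these ranges of counts, where a library left alone in its group is assumed to vary like the other groups. For TET KO against TET WT it was 5 to 7 at ESC D0, 5 to 8 at EpiLC D1, 10 to 14 at EpiLC D2, 4 to 7 at EB D2, 5 to 9 at EB D4, 7 to 8 at EB D6, 5 to 6 at EB D8. For DNMT KO against DNMT WT it was 0 to 1 at ESC D0, 0 to 1 at EpiLC D1, 0 to 0 at EpiLC D2, 0 to 6 at EB D2, 1 to 2 at EB D4, 0 to 2 at EB D6, 0 to 1 at EB D8. For EpiLC D2 against ESC D0 it was 4 to 9 in TET WT, 11 to 17 in TET KO, 2 to 6 in DNMT WT, 3 to 6 in DNMT KO. For EB D8 against ESC D0 it was 5 to 8 in TET WT, 8 to 11 in TET KO, 6 to 8 in DNMT WT, 4 to 6 in DNMT KO. For the differences of responses it was 1 to 4 in the TET pair, 0 to 1 in the DNMT pair. Reads set the limit: 51 of 67 genes had under 5 reads in the median library.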
